A study of Mus musculus with 4 samples.

Results

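Iyd and 5 further genes of thyroid hormone handling (Dio1, Thra, Thrb, Slc16a10 and Klf9) were examined in intestinal adenomas of ApcMin mice. The members are 6 of the 17762 genes listed in at least 1 library, and all 6 were listed in all 4 libraries and passed the low count filter. They were chosen by gene symbol with the genotype comparison already known: Iyd stood among the genes that were lower in Strap KO with the smallest p. Their genotype differences are therefore given as a description, with no test.

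Iodotyrosine deiodinase, the product of Iyd, strips iodine from iodinated tyrosines left over from hormone synthesis, so that iodide can be used again. Thyroxine reaches tissues from the blood, enters cells through membrane transporters such as the product of Slc16a10, and is converted by the selenoenzyme deiodinase 1 (Dio1) to the more active triiodothyronine. Triiodothyronine binds nuclear receptors encoded by Thra and Thrb, which regulate target genes such as Klf9. In the intestinal epithelium thyroid hormone is known for its part in crypt cell growth and in maturation of the absorptive lining.

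Both groups were C57BL/6 mice of 110 days that carried ApcMin, a mutant allele of the tumour suppressor gene Apc that causes intestinal tumours. One group had wild-type Strap (WT, 2 libraries) and the other was labelled Strap KO (KO, 2 libraries), named StrapIEKO in the series' design text. How many animals each library holds, and in which cells Strap was deleted, is not stated by these sources. Each library held 14084814 to 15640931 expected counts in total. Levels are given as CPM (counts relative to the TMM-adjusted library total) or as FPKM, which is also divided by transcript length and is the scale used between genes. Each ± is an SD over n = 2 libraries.

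Strap, the check of the labels, was at 157 and 112 CPM in WT replicates 1 and 2 and at 20.5 and 24.8 CPM in KO replicates 1 and 2, with 16.9% of the WT mean left. The tissue is labelled colon adenoma, but Car1, Aqp8, Hoxb13, Hoxd13 and Insl5, defining genes of the colon, reached at most 4.22, 0.834, 0.779, 0.0649 and 0.26 CPM, while the small-intestinal gene Sis, for sucrase-isomaltase, was at 1969 to 4707 CPM. Xist was at 968 and 197 CPM in WT and KO replicate 1 and below 1 CPM in both replicates 2, where the Y-linked Ddx3y was at 39.1 and 33.3 CPM, so that each genotype holds 1 library of each pattern.

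The sequence before the start site is shown for Iyd, which separated the genotypes, for Dio1, which varied most between libraries, and for Thrb, whose first window was the only one of the members' to hold the letters AGGTCA, the hexamer that thyroid hormone receptors and related nuclear receptors recognise. Each run is the 250 bases before a RefSeq start site in GRCm38.p6 (mm10), read 5′ to 3′ on the gene's strand. Capitals mark AGGTCA, the GC box GGGCGG, or the TATA box TATAAA, each searched on both strands.
Iyd, chr10:3540024-3540273, plus strand: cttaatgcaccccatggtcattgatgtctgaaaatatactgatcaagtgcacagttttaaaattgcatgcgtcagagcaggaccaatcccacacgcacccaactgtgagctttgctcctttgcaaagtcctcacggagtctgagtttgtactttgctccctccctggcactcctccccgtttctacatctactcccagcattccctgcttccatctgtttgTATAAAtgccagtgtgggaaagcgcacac
Dio1, chr4:107307169-107307418, minus strand: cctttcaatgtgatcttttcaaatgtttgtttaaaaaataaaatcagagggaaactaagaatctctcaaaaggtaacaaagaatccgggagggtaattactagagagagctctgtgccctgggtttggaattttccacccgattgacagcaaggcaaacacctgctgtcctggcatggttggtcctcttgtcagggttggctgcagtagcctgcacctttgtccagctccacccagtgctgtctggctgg
Thrb, chr14:17660710-17660959, plus strand: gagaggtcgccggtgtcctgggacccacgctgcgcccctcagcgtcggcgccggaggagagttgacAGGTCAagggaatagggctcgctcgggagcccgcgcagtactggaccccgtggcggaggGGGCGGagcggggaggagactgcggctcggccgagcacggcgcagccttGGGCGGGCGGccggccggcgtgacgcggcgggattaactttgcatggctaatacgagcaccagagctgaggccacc
Windows were found for 5 of the 6 members, 6 windows in all, since Thrb has 2. AGGTCA was in 1 of these 6 and in 14% of all 32851 windows of this length. A direct repeat of that hexamer spaced by 4 bases, the classical thyroid hormone response element, was in 0 of 6 and in 0.0152% of all. GGGCGG was in 2 of 6 (Slc16a10, and the Thrb window shown, where 2 of its 3 matches overlap) and in 32.7% of all. TATAAA was in 2 of 6 and in 12.4% of all. In Iyd it began 29 bases before the start. The other match lay in the second Thrb window, 167 bases before that start. G and C made up 48.4% of the Iyd window and 46.8% of the Dio1 window, against 71.6% of the Thrb window shown, 64.4% in Slc16a10 and 59.6% in Klf9. These matches are letters in a window and do not show binding.

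Iyd was low in both KO libraries and at like levels within each genotype. The gene lies on chromosome 10 from 3540274 to 3554880 in mm10. WT replicates 1 and 2 had expected counts of 161 and 174, and KO replicates 1 and 2 had 10 and 10. On the FPKM scale these were 7.05 and 7.73 against 0.43 and 0.48. The groups did not overlap, and the KO libraries differed from each other by less than their counting error: a count of 10 has an exact Poisson 95% interval from 4.8 to 18.4, which covers counting error only. The mean was 10.8 ± 0.679 CPM in WT against 0.682 ± 0.00113 in KO, or -3.97 (SE 0.46) as log2 fold change, with 6.31% of the WT level left. The difference was -3.68 in log2 CPM between the replicate 1 libraries and -3.81 between the replicate 2 libraries, the Xist-positive and the Y-positive pair. In bulk tissue, fewer cells of a type and less RNA per cell cannot be told apart.

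**Figure D1:**
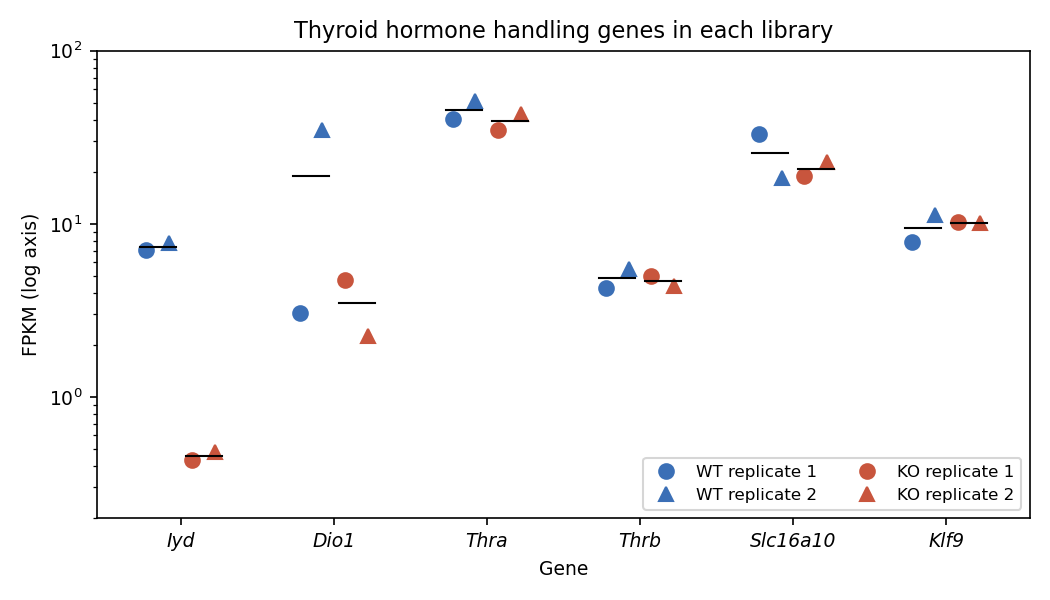
FPKM (log axis) of the 6 genes in each library: blue WT, red KO, circles replicate 1, triangles replicate 2, and black bars the group means. Iyd lies at 7.05 and 7.73 in WT and at 0.43 and 0.48 in KO, Dio1 is high in WT replicate 2 alone, and the other 4 genes overlap between the groups.

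Of the 6 members, 1 (Iyd) had both KO libraries below both WT libraries, beside 24.6% of the 12769 genes tested, and 0 had both above, beside 25.5%. At an adjusted p under 0.05 in edgeR, 0 of 6 were called in either direction, beside 0.00783% of all genes higher in KO and 0% lower. At an unadjusted p under 0.05 there was 1 member lower, Iyd, beside 8.69% of all genes, and 0 higher, beside 7.08%. DESeq2 called 1 lower, Iyd again, beside 3.32% of genes, and 0 higher, beside 1.82%. limma on FPKM called 0 of 6, and 0% of all genes. The choice of the members used this comparison, so nothing is read from these counts.

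Among the 12768 other genes tested, the 4 whose centred log2 CPM over the 4 libraries lay nearest to Iyd were Dapk1, Ghr, Ddit4l and Gspt2, at Euclidean distances of 0.295, 0.404, 0.422 and 0.428. Ghr, the growth hormone receptor gene, was at 30.1 and 25.9 CPM in WT against 2.19 and 1.57 in KO. Dapk1, a death-associated kinase gene, was at 3.21 and 3.7 CPM in WT against 0.137 and 0.204 in KO, the latter being counts of 2 and 3. Ddit4l had counts of 21 and 18 in WT and Gspt2 of 23 and 18, and neither was listed in KO. All 4 were low in both KO libraries and close in both WT libraries, which follows from choosing them by nearness to Iyd. Of the next genes along chromosome 10, Plekhg1, 185370 bases after Iyd, was at 13.9 and 10.5 CPM in WT against 8.13 and 11.3 in KO, overlapping between the groups. Ppp1r14c, 75295 bases before Iyd, was at 0.77 and 1.36 CPM in WT against 0.342 and 0.136 in KO, with both KO libraries below both WT libraries as in Iyd, at a log2 fold change of -2.12 (SE 0.89).

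Thyroid follicular cells are the cells best known for Iyd, and their defining genes were at or near 0. Foxe1 was not listed in any library, and Tg, for thyroglobulin, Nkx2-1, Tshr and Slc5a5, for the iodide symporter, reached at most 0.0642, 0.0683, 0.204 and 0.546 CPM. The list of 7 summed to 7.89 and 11.4 CPM in WT against 8.13 and 8.04 in KO, nearly all of it Pax8. Among the 16 marker lists, 4 had a lower sum in both KO libraries than in both WT libraries. The gene counts given below stand beside 24.6% of all tested genes lower in both KO libraries and 25.5% higher. A list with 1 of 4, 1 of 6 or 2 of 6 such genes is near or below these shares, and nothing is read from it. Tuft cell genes (5 of 6 lower in both KO libraries) summed to 77.6 and 114 CPM in WT against 25.6 and 7.43 in KO. Colon genes (2 of 6) summed to 24.1 and 41.3 CPM in WT against 19.8 and 17.7 in KO. Hepatocyte genes (4 of 6) summed to 16.8 and 13.6 CPM in WT against 6.56 and 7.02 in KO. The largest of them was Ttr, at 9.88 and 10.1 CPM in WT against 6.15 and 5.32 in KO. Alb was at 5.33 CPM in WT replicate 1 but at 0.0649 CPM in WT replicate 2, and was not listed in KO. Endothelial genes (3 of 5) summed to 44.3 and 2.4 CPM in WT against 1.3 and 2.39 in KO. The sum of B cell genes (1 of 4 higher in both KO libraries) was 1.41 and 1.49 CPM in WT against 2.32 and 5.04 in KO. That of macrophage genes (1 of 6 higher) was 16 and 13.9 CPM in WT against 21.9 and 23.6 in KO, and the 1 gene was Cd14, at 8.85 and 11.9 CPM in WT against 19.8 and 19.4 in KO. The part of these cell types in the Iyd difference was not tested.

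**Figure D2:**
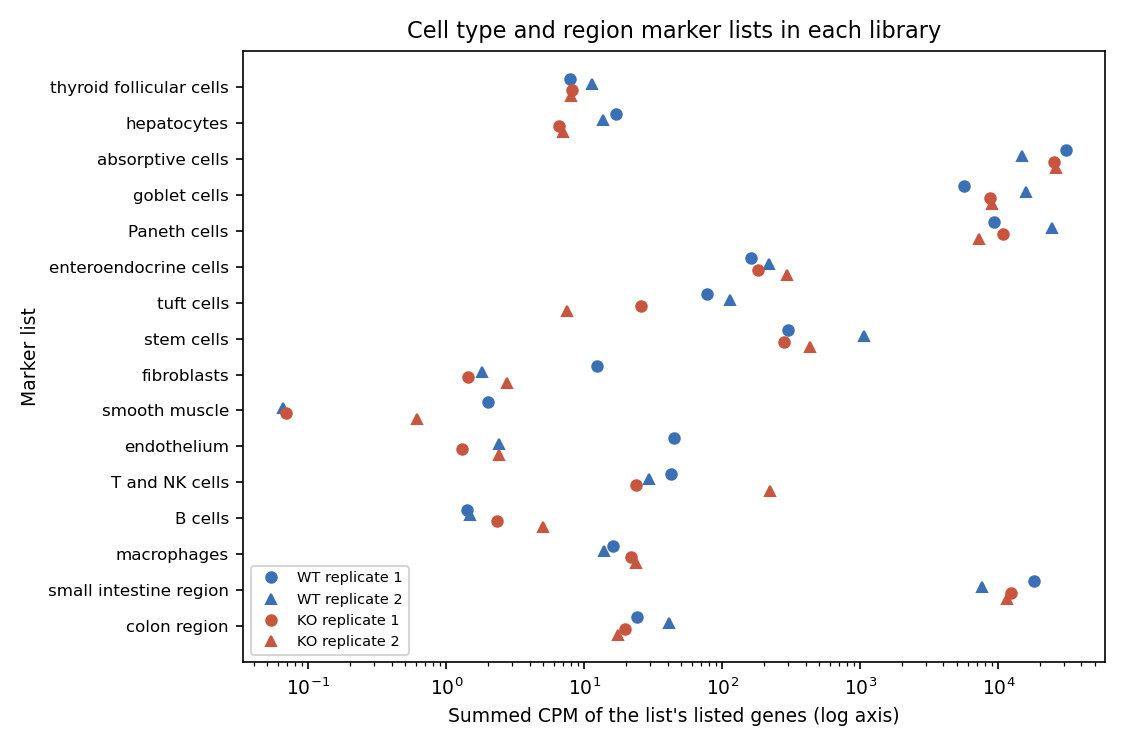
Summed CPM (log axis) of 16 marker lists in each library: blue WT, red KO, circles replicate 1, triangles replicate 2. Thyroid follicular genes lie between 7.89 and 11.4 CPM in all 4 libraries, tuft cell genes are lower in both KO libraries, and WT replicate 2 is highest for goblet, Paneth and stem cell genes.

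Dio1 was high in 1 library only. It lies on chromosome 4 from 107291465 to 107307168. WT replicates 1 and 2 had expected counts of 78 and 873, and KO replicates 1 and 2 had 123 and 52, or 3.07, 34.8, 4.76 and 2.25 FPKM in the same order. WT replicate 2 stood 6.74 times above the next library, KO replicate 1, while WT replicate 1 lay between the KO libraries. The mean of 30.8 ± 36.5 CPM in WT against 5.97 ± 3.44 in KO gave a log2 fold change of -2.37 (SE 1.07), which was 0.25 without WT replicate 2. The difference was 0.73 in log2 CPM between the replicate 1 libraries and -3.95 between the replicate 2 libraries, so the sign depended on the pair.

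WT replicate 2 also differed in markers. It had the highest sums of goblet (15756 CPM against 5628 to 9014 in the other libraries), Paneth (24493 against 7212 to 10757) and stem cell genes (1059 against 281 to 430), and the lowest sums of absorptive cell genes (14913 against 25406 to 30693) and small intestine genes (7645 against 11513 to 17992). Not each gene followed its sum: the ileal genes Fabp6 and Slc10a2 of the small intestine list were highest in WT replicate 2, at 2453 CPM against 118 to 894 and at 259 against 11.4 to 84.9. The part of these genes in the Dio1 level was not tested. The 4 genes nearest to Dio1 in profile were Hoxb3, Nr2e3, Siglecf and Slc17a8, at distances of 0.436, 0.463, 0.707 and 0.844. They were highest in WT replicate 2, which follows from choosing them by nearness to Dio1. Hoxb3, a homeobox gene, was at 13.7 CPM there and at 0.706, 1.5 and 0.681 CPM in WT replicate 1 and KO replicates 1 and 2. The genes on either side of Dio1, 6967 and 7054 bases away, were both highest in KO replicate 1 and not in WT replicate 2. Hspb11 was at 3.72 and 4.93 CPM in WT against 6.35 and 3.61 in KO, and Yipf1 at 50.9 and 69.5 CPM in WT against 77.2 and 62.1 in KO. The other deiodinase genes were near 0: Dio2 had 9 counts in WT replicate 1 and was not listed in the other libraries, and Dio3 was not listed in any.

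The receptor genes varied little across the libraries. Thra was at 40.25, 51.02, 34.97 and 43.17 FPKM in WT replicates 1 and 2 and KO replicates 1 and 2. The groups overlapped, at 107 ± 17.8 CPM in WT against 93.6 ± 5.97 in KO, and the log2 fold change was -0.19 (SE 0.21). Thrb, on chromosome 14 from 17659225 to 18040097, was at 4.25 and 5.51 FPKM in WT and 4.99 and 4.4 FPKM in KO, and its log2 fold change in CPM was -0.02 (SE 0.25). Both KO values of Thrb lay between the WT values. On the FPKM scale Thra was the higher receptor gene in each of the 4 libraries.

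The Thra values carry a limit from its neighbour. Thra, on chromosome 11 from 98740776 to 98769006, overlaps Nr1d1, which encodes the clock repressor REV-ERB alpha and is transcribed from the other strand, by 1075 bases. Whether the counting used strand is not stated by these sources. In the order of WT replicates 1 and 2 and KO replicates 1 and 2, Thra had expected counts of 1473.67, 1845.17, 1309.06 and 1435.88, and those of Nr1d1 were 857.33, 1904.83, 718.94 and 1550.12. In each library the 2 fractional counts added to a whole number within 0.01 (2331, 3750, 2028 and 2986). Thra took 63.2% and 49.2% of this sum in WT and 64.5% and 48.1% in KO. Nr1d1 was higher in both replicates 2 (124 and 106 CPM) than in both replicates 1 (55 and 49.1 CPM), and Thra was also somewhat higher there (120 and 97.9 against 94.6 and 89.4 CPM). Any part of the Thra level that came from Nr1d1 transcripts was not tested.

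**Figure D3:**
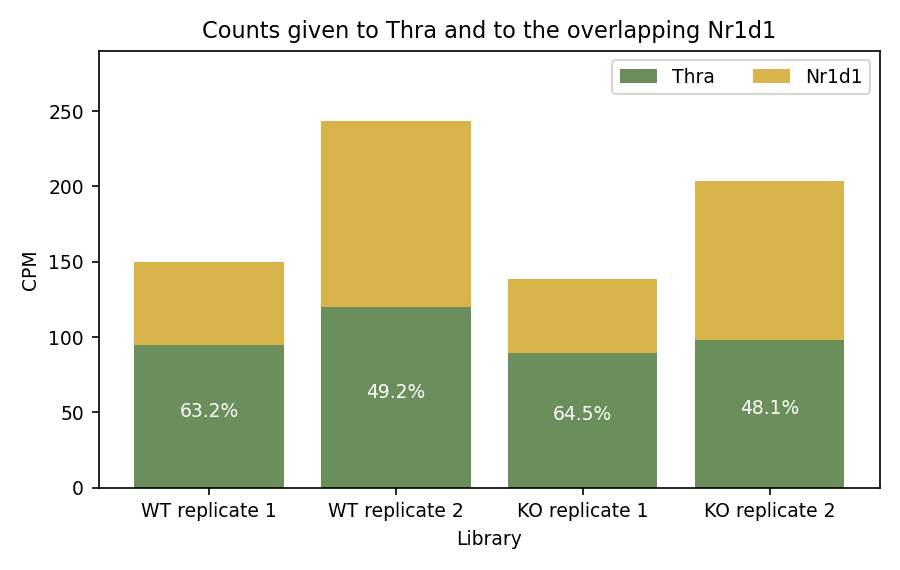
CPM assigned to Thra (green) and to the overlapping gene Nr1d1 (yellow), stacked, in each library, with the share given to Thra printed in the bar. The Thra part varies between 89.4 and 120 CPM, while the Nr1d1 part is 49.1 and 55 CPM in replicates 1 and 106 and 124 CPM in replicates 2.

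Slc16a10 encodes a transporter of aromatic amino acids that also carries thyroid hormones, and was second to Thra among the members in mean FPKM. It lies on chromosome 10 from 40033532 to 40142270. It was at 33.1 and 18.5 FPKM in WT and 18.8 and 22.6 FPKM in KO. WT replicate 1 was the high library, and WT replicate 2 was below both KO libraries. The mean was 132 ± 53.3 CPM in WT against 110 ± 5.99 in KO, and the log2 fold change was -0.27 (SE 0.31), or 0.20 without WT replicate 1.

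The deposited tables give a second readout for genes with several transcripts, the transcript length, which in RSEM gene tables is a mean weighted by abundance. For Slc16a10 it was 5228.4 and 5213.67 bases in WT and 5288.58 and 5300.97 bases in KO, higher in both KO libraries by 73.7 bases on average. Its transcripts, matched by accession, are 5397 and 2325 bases long in GENCODE M21. On these lengths a longer mean would go with a larger share of the longer one. The exact two-sided permutation test gave p = 0.333, the smallest that 2 against 2 libraries allow. Of the 3850 genes whose length varied between libraries, 12.7% were likewise longer in both KO libraries and 19.6% shorter. For Thra the length was 2430 and 2432.3 bases in WT and 2446.15 and 2424.84 bases in KO, which overlapped. Thrb was at 5997 bases in all 4 libraries, while its matched transcripts are 4532 and 6200 bases long in GENCODE M21. Whether the deposited lengths rest on the GENCODE lengths was not tested.

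Klf9, a zinc finger gene induced directly by both thyroid hormone and glucocorticoids, varied little across the libraries. It lies on chromosome 19 from 23141226 to 23168129. It was at 7.86 and 11.2 FPKM in WT and 10.2 and 10.1 FPKM in KO. The KO libraries lay between the WT libraries, with means of 30.2 ± 7.4 CPM in WT against 33.1 ± 2.9 in KO, and the log2 fold change was 0.13 (SE 0.25), or -0.12 without WT replicate 1. Over the 4 libraries the SD was 15.4% of the mean for Klf9, 13.3% for Thra, 14.3% for Thrb and 27.7% for Slc16a10, against 102% for Iyd and 139% for Dio1.

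By FPKM the order in both KO libraries was Thra, Slc16a10, Klf9, Thrb, Dio1, Iyd. In WT replicate 1 Iyd stood between Klf9 and Thrb with Dio1 last, and in WT replicate 2 Dio1 stood second. Thrb (4.25 to 5.51 FPKM) and Klf9 (7.86 to 11.2 FPKM) kept apart in each library. Iyd in WT, at 7.05 and 7.73 FPKM, lay between them.

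The rest of the pathway was described from 9 lists of 90 genes, of which 86 were listed and 72 tested. None of the 72 passed at an adjusted p under 0.05 in edgeR's quasi-likelihood test. Strap, the check of the labels, did not pass it either (adjusted p = 0.0942 in edgeR and 8.17e-14 in DESeq2). A gene that did not pass is therefore not shown to be unchanged. At an unadjusted p below 0.05 in edgeR, 1 of the 72 (Duoxa2) was higher, beside 7.08% of all genes tested, and 14 were lower, beside 8.69%. By DESeq2 0 were higher and 5 lower, beside 1.82% and 3.32% of all genes, and limma called 0. Of the 72, 24 had a log2 fold change above 0 and 48 below, with a median of -0.25 (-0.23 over genes listed in both genotypes) beside 0.004 over all genes tested. In 10 of them both KO values were above both WT values, beside 25.5% of all genes, and in 30 below, beside 24.6%.

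Among transporters of thyroid hormone other than Slc16a10, 6 of 10 were tested, with a median log2 fold change of -0.06. Slc17a4, an anion transporter gene of the intestine whose product carries thyroid hormones, was at 62.4 and 69.8 CPM in WT against 27.7 and 33.4 in KO. Its groups did not overlap, with a log2 fold change of -1.11 (SE 0.21) and an adjusted p of 0.154 in edgeR and 0.00305 in DESeq2. The amino acid transporter pair Slc7a8 and Slc3a2, which form a heterodimer that also moves thyroid hormones, did not pass. Slc3a2 was at 297 and 192 CPM in WT against 349 and 344 in KO (adjusted p = 0.434 in edgeR). Slc7a8 was lowest in WT replicate 2, at 165 CPM against 360 to 455 CPM elsewhere.

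Among genes of deiodination, conjugation and binding, 5 of 7 were tested, with a median of -0.80. Sult1a1, a sulfotransferase gene, was at 4.88 and 2.27 CPM in WT against 0.615 and 0.341 in KO, at a log2 fold change of -2.88 (adjusted p = 0.215 in edgeR and 0.0379 in DESeq2). Ugt1a1, a glucuronosyltransferase gene that shares exons with its family and whose counts are therefore uncertain, was at 368 and 179 CPM in WT against 131 and 145 in KO. Ttr, for the carrier transthyretin, was at 9.88 and 10.1 CPM in WT against 6.15 and 5.32 in KO. The adjusted p of Ugt1a1 was 0.294 and that of Ttr 0.339 in edgeR. Genes for inserting selenocysteine, which Dio1 needs, were all 5 tested, with a median of 0.07. Sephs2, Pstk and Sepsecs had log2 fold changes of 0.33, 0.34 and -0.23.

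Of 11 genes for iodide handling and hormone synthesis, 4 were tested. The oxidase gene Duox2 and its maturation factor Duoxa2, which make hydrogen peroxide in thyroid and gut epithelium, were higher in both KO libraries. Duoxa2 was at 53.6 and 58.2 CPM in WT against 98.6 and 90 in KO, at a log2 fold change of 0.75 (adjusted p = 0.211 in edgeR), and Duox2 at 98.5 and 164 CPM in WT against 194 and 202 in KO (adjusted p = 0.378). Slc5a8, a monocarboxylate transporter gene once studied as an iodide transporter, was lower in both KO libraries, at 98 and 211 CPM in WT against 53.5 and 81.8 in KO (adjusted p = 0.273). Neither direction passed the test.

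Receptor partners and coregulators had a median of -0.12 over 15 tested genes, close to 0. The coactivator gene Ncoa2 was at 92.9 and 82.9 CPM in WT against 48 and 74.3 in KO (adjusted p = 0.387 in edgeR). The retinoid X receptor gene Rxrb, a partner of the thyroid hormone receptors, was at 40.2 and 48.9 CPM in WT against 69.9 and 51.8 in KO (adjusted p = 0.408). Response genes other than Klf9 had a median of -0.05 over 8 tested genes, with 4 on each side of 0. Me1, for malic enzyme, had a log2 fold change of 0.53, Cpt1a, for a mitochondrial fatty acid importer, -0.33, and Ctnnb1, for beta-catenin, -0.42. Their adjusted p values lay between 0.458 and 0.519 in edgeR.

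**Figure D4:**
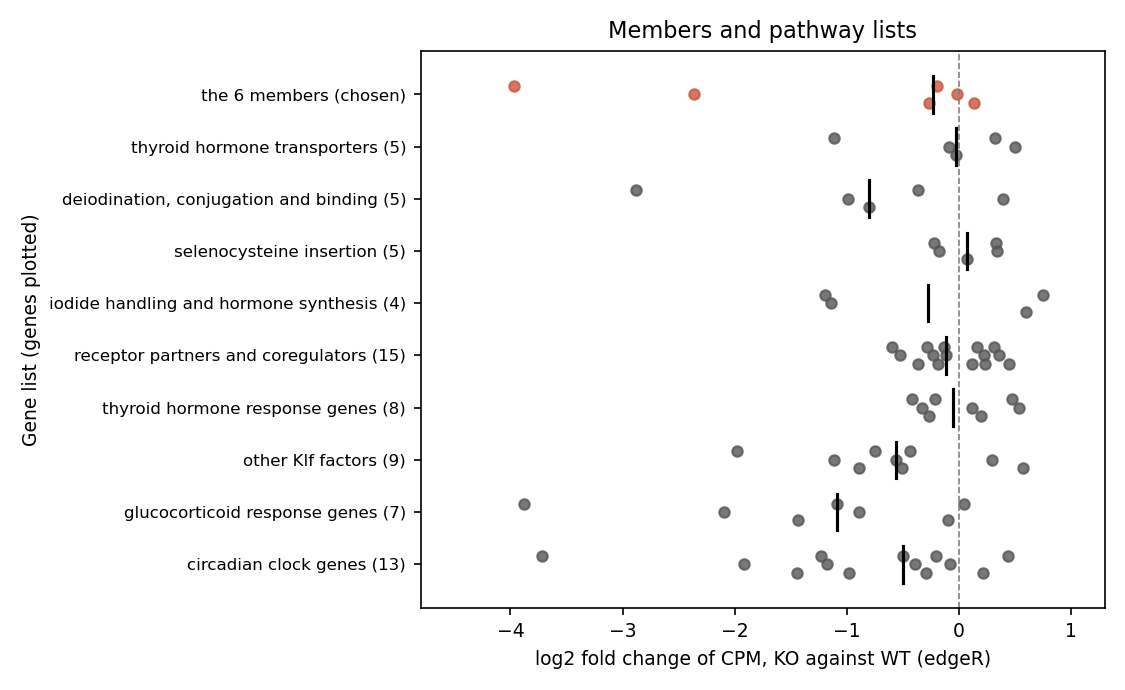
log2 fold change of CPM, KO against WT, of the 6 chosen members (red) and of the tested genes listed in both genotypes in 9 pathway lists (grey), with a black bar at the median of the genes plotted. The medians of response genes and coregulators lie near 0 while glucocorticoid genes centre at -1.09.

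Genes related to Klf9, or induced by glucocorticoids as Klf9 is, were described in the same way. Other Klf factors had a median of -0.56 over 9 genes, and 6 of the 9 were lower in both KO libraries, beside 24.6% of all genes. Klf4, a differentiation factor of the gut epithelium, was at 272 and 191 CPM in WT against 98.6 and 151 in KO (adjusted p = 0.273 in edgeR), Klf6 at 317 and 187 CPM in WT against 143 and 157 in KO (0.315), and Klf11 at 18 and 13.2 CPM in WT against 8.67 and 5.72 in KO (0.271). Glucocorticoid response genes had a median of -1.09 over 7 tested genes, 5 of which were highest in WT replicate 1. Dusp1, a phosphatase gene, was at 84.8 CPM there and at 5, 2.8 and 3.27 CPM in WT replicate 2 and KO replicates 1 and 2. Sgk1, a kinase gene of ion transport, was at 368 and 94.5 CPM in WT against 94.3 and 13.8 in KO. Hsd11b2, whose product inactivates glucocorticoids, was at 33.2 and 45.7 CPM in WT against 31.4 and 11 in KO. Fkbp5, Tsc22d3 and Per1 were higher in both replicates 1 than in both replicates 2. The other tested genes of this list overlapped between the replicate numbers. Klf9 was lowest in the library where Dusp1 and Sgk1 were highest. No difference between Klf9 and these genes was tested.

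Clock genes had a median of -0.50 over 13 genes, of which 10 were highest in WT replicate 1. In 6 of the 13 both KO libraries were lower, again beside 24.6% of all genes. Per3, a period gene, was at 45.9 and 11.4 CPM in WT against 7.51 and 7.63 in KO (adjusted p = 0.271 in edgeR and 0.047 in DESeq2). Cry2, a cryptochrome gene, was at 35.2 and 11.4 CPM in WT against 7.58 and 9.54 in KO, and Tef at 126 and 44.3 CPM in WT against 40.5 and 34.4 in KO. Hlf, a clock output factor gene named because DESeq2 called it, was at 5.52 and 0.973 CPM in WT against 0.273 and 0.204 in KO. Nr1d1, as given above, Arntl and Npas2 were higher in both replicates 2 than in both replicates 1. Dbp, Per2, Ciart and Cry1 were higher in both replicates 1 than in both replicates 2. The other clock genes of the list overlapped between the replicate numbers. The time of day at which tissue was taken is not stated by these sources.

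**Figure D5:**
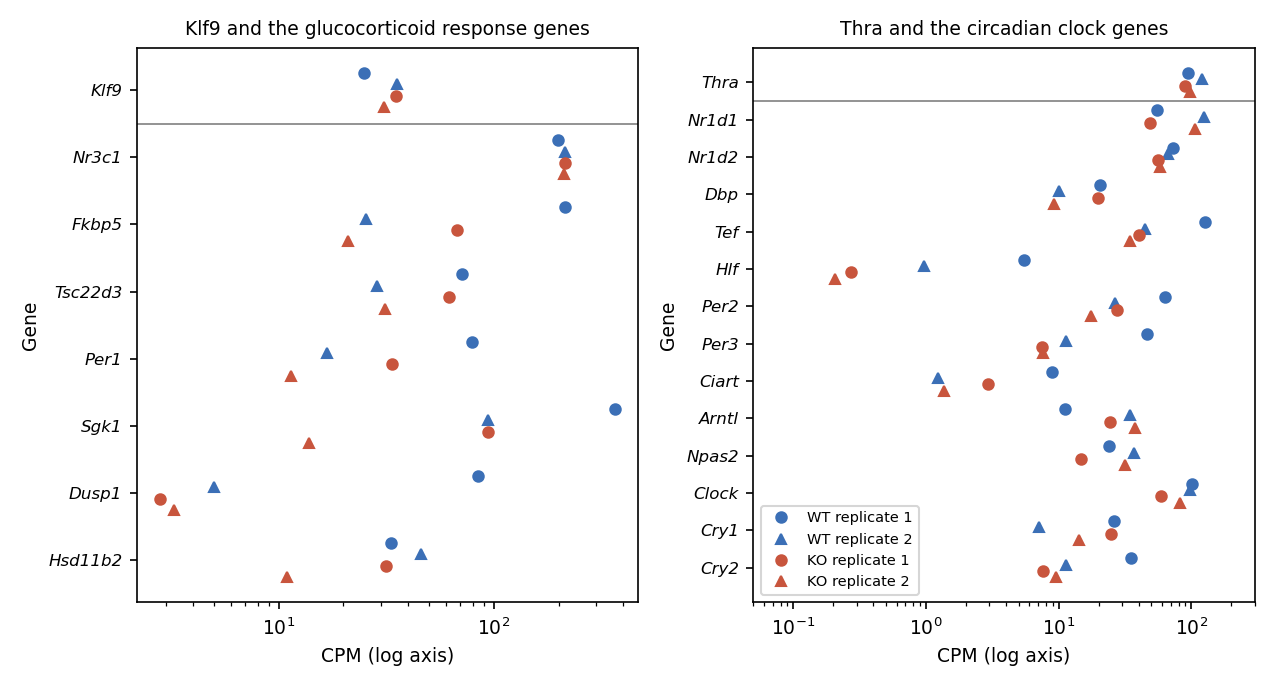
CPM (log axis) of Klf9 with the tested glucocorticoid response genes (left) and of Thra with the clock genes (right): blue WT, red KO, circles replicate 1, triangles replicate 2. Klf9 spans 25 to 35.4 CPM and Thra 89.4 to 120 CPM, while Dusp1 and Per3 stand highest in WT replicate 1 and Nr1d1 is higher in both replicates 2.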

How the data were processed

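RNA with poly(A) tails of 4 libraries was read from both ends on a BGISEQ-500, per the labels' protocols. Per the submitters' processing notes, Bowtie2 2.2.5, RSEM 1.2.12 and mm10 were used, with no role or order given. Per the file headers, the deposited tables hold expected counts, FPKM and transcript length per gene. The lowest deposited FPKM is 0.01, and an absent gene is called not listed and given no limit. Strandedness is not known from these sources.

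Tables were joined on gene identifiers with pandas 2.3.3. A row naming no gene, 1 per library and at most 0.000233% of counts, was dropped. Expected counts were rounded and fitted in R 4.3.3 with edgeR 4.0.16 (quasi-likelihood, TMM, filterByExpr, genotype as the only term) over 12769 genes, with Benjamini-Hochberg adjustment. DESeq2 1.42.0 and limma 3.58.1 on log2(FPKM + 1) were alternatives. The fits were tested on simulated counts with known fold changes. The fit had 2 residual degrees of freedom and a biological coefficient of variation of 32.5%. Labels do not say that libraries are separate animals. In each genotype replicate 1 had Xist (968 CPM in WT, 197 in KO) and 0 CPM of Ddx3y. Replicate 2 had Ddx3y (39.1 CPM in WT, 33.3 in KO) and Xist below 1 CPM. The 2 libraries of a genotype therefore hold different animals, and the spread behind the p values is not technical alone. It also holds any difference between these 2 patterns.

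The members, pathway lists, marker lists and alternatives were chosen with earlier results of these data known. Of each pathway list, genes past the threshold were named, or else up to 3 with the smallest p and a mean FPKM of at least 1. For members spanning at least 2 in log2 CPM, the 4 nearest profiles were named. Genes added beyond this rule were mentioned for a count or a comparison after their values were seen, among them Dio2, Xist, Ddx3y, the single marker genes, Plekhg1, Ppp1r14c, Hspb11 and Yipf1. Promoter sequences and coordinates are RefSeq's in GRCm38.p6, and no protein sequence was used here. Single genes of the lists that do not appear in the text are counted but not reported here.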

Additional observations from a re-analysis of the deposited data

How the results depend on the processing

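With 2 libraries a group, depth and replicate number limit what can be called, and 10 counts of Iyd in each KO library set its precision. Over 13 alternatives each, the log2 fold change of Iyd lay between -4.05 and -2.53 (the latter on log2(FPKM + 1), which shrinks low genes) and that of Thra between -0.37 and -0.01, both with an unchanged sign. Dio1 ranged from -3.26 to 0.25, positive only without WT replicate 2, Slc16a10 from -0.63 to 0.20 and Klf9 from -0.12 to 0.41, each with a changed sign only without WT replicate 1, and Thrb from -0.21 to 0.18, with 3 sign changes.

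Calls over all genes (1 higher and 0 lower) were 0 and 0 with library size alone and with limma at either pseudocount, 19 and 8 with no low count filter, and 233 and 424 with DESeq2. Leaving out 1 library gave 0 to 41 higher and 0 to 133 lower, the upper ends without WT replicate 2. Of the pathway genes, none was called higher in any setting. DESeq2 called 5 lower, and leaving out a library gave 0 to 2 lower (Dusp1 and Per3 without WT replicate 2).

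With the replicate block 46 genes were called higher and 70 lower, with 1 pathway gene (Sgk1). Deviations of same-numbered libraries correlated at -0.123 across genes, so a crossed replicate block was added after seeing the data, with 65 higher and 99 lower. The labels do not say that the numbers pair the libraries. Replicate number goes with the Xist and Ddx3y pattern in both genotypes, so the uncrossed block is also a block on that pattern. The cause of these changes in counts was not tested.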
